A study of Homo sapiens with 9 samples.

Results

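Transcript levels of 10 genes, grouped here as melanosome uptake receptors and phagocytosis genes, were followed in HaCaT keratinocytes. They were chosen by symbol, with no threshold on their values, though with earlier results of these data known, and are F2RL1, FGFR2 and ITGAV (receptors), RAC1, CDC42 and ARF6 (small GTPase switches), CAV1, CLTC and DNM2 (coat and scission proteins) and MYO10 (a motor). All 10 were found among the 20263 gene rows of the count table, and all 10 passed the filter on low counts. HaCaT is an immortalised human epidermal line. The series compared control cells (labelled Blank and WT), cells laden with melanosomes, and cells laden with melanosomes and also treated with glabridin, a licorice isoflavan, with 3 libraries in each group. Below, "melanosome" and "glabridin" name the 2 laden groups, so every glabridin library also carries melanosomes. The labels used here name no melanosome source, dose or time, and without a group given glabridin alone the effect of glabridin on unladen cells was not measured.

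Melanosomes are the pigment organelles that melanocytes hand to neighbouring keratinocytes, which engulf them. The protease-activated receptor PAR-2, encoded by F2RL1, and the keratinocyte growth factor receptor, an epithelial form of FGFR2, are both known to promote this uptake in keratinocytes. Engulfment is driven by actin, under the switches RAC1 and CDC42 and the membrane switch ARF6, and smaller vesicles form at caveolae (CAV1) or clathrin coats (CLTC) and are cut free by dynamin (DNM2).

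Library totals ran from 39653425 to 46690787 counts, and 13912 genes were tested with edgeR. Values are CPM, a count as a share of its library, on library sizes scaled by TMM, a method that centres the bulk of genes. Using library totals alone instead shifted the median log2 change over all genes by 0.17 in melanosome against control and by -0.18 in glabridin against melanosome, but by -0.011 in glabridin against control. Small changes in the first 2 comparisons are therefore relative to the TMM scale. The 20 keratinocyte markers summed to 15682 to 15795 CPM in control, 13358 to 14244 CPM in melanosome and 11540 to 14321 CPM in glabridin libraries. The 23 melanocyte markers summed to 321 to 331 CPM in control, where 6 of them were at 0 in every library, against 3723 to 3847 CPM in melanosome and 2334 to 4112 CPM in glabridin libraries. Fibroblast, macrophage and endothelial marker lists summed to at most 48.2, 11.8 and 38.4 CPM in any library. Of the melanocyte sum, PMEL alone held 2109 ± 65.8 CPM (SD, n = 3) in melanosome and 1602 ± 676 CPM in glabridin libraries. Against control, 22 of the 23 melanocyte markers were called higher in each laden group and 1, ERBB3, lower (log2 changes -0.57 and -0.66). Most melanocyte marker transcripts thus moved with the melanosome groups, and their part in the results below was not tested. In such bulk RNA, fewer cells of a type and less RNA per cell cannot be told apart. Glabridin replicates 2 and 3 also lay further from their group mean than the other libraries, with a standard deviation of log2 deviations across genes of 0.24 and 0.23, against 0.093 to 0.12 in the rest. Deviations followed GC content in both laden groups, as a description over 13907 genes that share each library. The rank correlation was 0.44 in glabridin replicate 2 and -0.58 in replicate 3, and likewise -0.58 in melanosome replicate 1 and 0.50 in replicate 3.

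Per length of transcript (TPM, counts divided by length and scaled to a fixed total), the genes spanned a wide range in control cells. RAC1 stood highest at 616 ± 12.2 TPM (SD, n = 3), followed by CAV1 at 327 ± 9.48, DNM2 at 286 ± 4.72 and CDC42 at 194 ± 4.77 TPM. ARF6 stood at 93.3 ± 1.36, CLTC at 83.1 ± 1.151 and F2RL1 at 52.5 ± 2.65 TPM. The lowest were ITGAV at 37.3 ± 0.57, MYO10 at 20.5 ± 0.61 and FGFR2 at 7.99 ± 0.66 TPM. No neighbours in this order overlapped among the control libraries. In melanosome libraries MYO10 (33.7 ± 1.01 TPM) stood above ITGAV (24.5 ± 3.38 TPM), and ARF6 overlapped CLTC. In glabridin libraries DNM2 overlapped CDC42, ARF6 overlapped CLTC and MYO10 overlapped ITGAV.

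The comparison of melanosome with control cells asks how carrying melanosomes bears on these transcripts. MYO10 rose, and F2RL1, FGFR2, ITGAV, RAC1, CDC42 and DNM2 fell, which makes 7 of 10 called at an adjusted p under 0.05. Over all genes tested 62.5% were called, 29.5% as higher and 33.0% as lower, so a share of 7 in 10 is near the background. The balance of 1 rise to 6 falls was 2 to 5 with library totals alone, where F2RL1 was not called and CLTC rose. Libraries of the groups did not overlap for 8 of the 10 genes, against 76.1% of all genes. The median log2 change was -0.30, against -0.058 over all genes. ITGAV at -0.79 had the largest change of the 10, short of the 2-fold that 19.7% of all genes passed.

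The comparison of glabridin with melanosome cells asks what glabridin changes in laden cells. F2RL1, ARF6 and CLTC rose, and FGFR2, CAV1 and DNM2 fell. These 6 of 10 stand beside 43.9% of all genes called, 23.7% as higher and 20.2% as lower. With library totals alone the split of 3 rises to 3 falls became 1 to 5, with ARF6 the gene that rose. Groups did not overlap for 7 genes, against 50.2% of all genes, and the median log2 change was 0.011, against 0.012 over all genes. CAV1 at -0.64 had the largest change of the 10, while 8.02% of all genes changed at least 2-fold.

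Glabridin against control cells, the comparison least moved by scaling, had 9 genes called. ARF6, CLTC and MYO10 rose and FGFR2, ITGAV, RAC1, CDC42, CAV1 and DNM2 fell, with the same 3 to 6 split under TMM, RLE and library totals. Over all genes 70.3% were called here, 37.6% as higher and 32.7% as lower, and the groups did not overlap for 73.2%. FGFR2 at -1.01 was the 1 gene of the 10 past 2-fold, as were 27.6% of all genes, and F2RL1 was the gene not called. The 3 comparisons share their libraries, so they do not support each other.

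**Figure D1:**
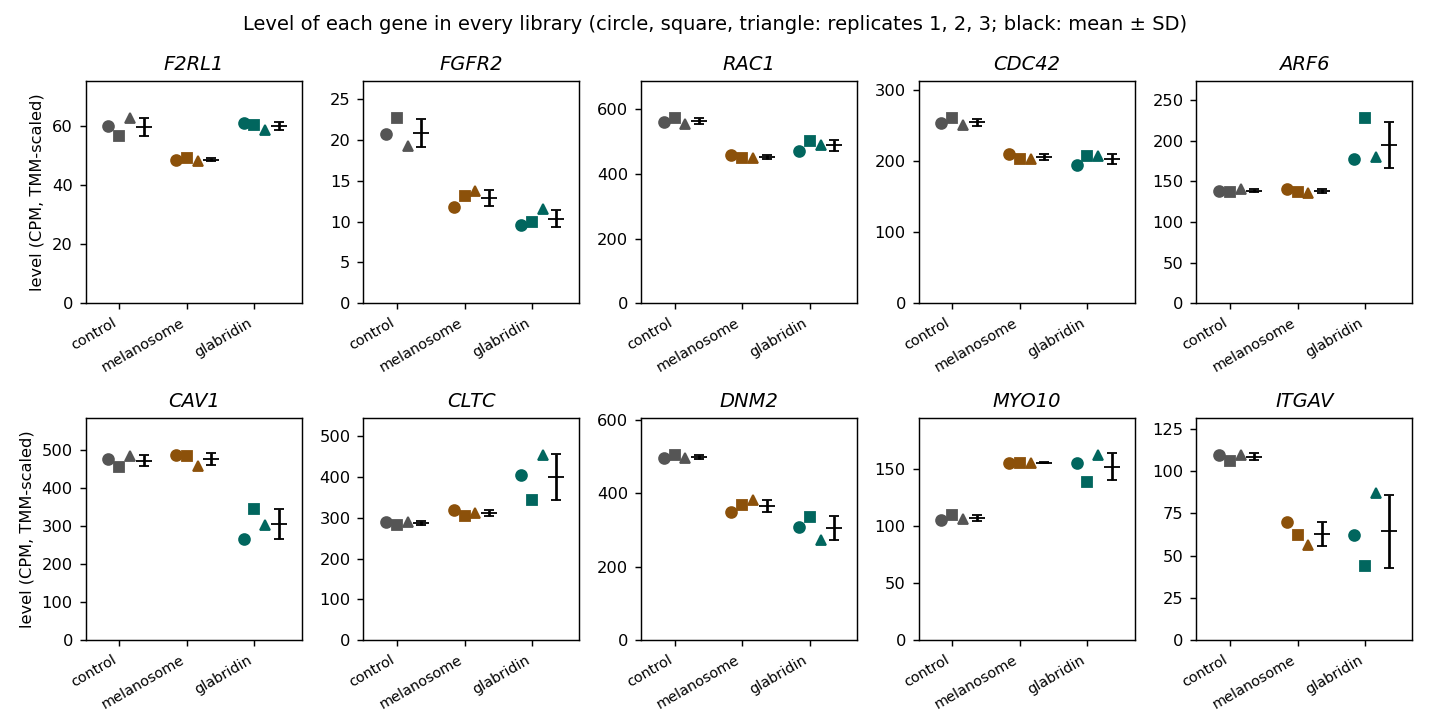
TMM-scaled CPM (vertical axes, from 0, a different range per gene) of the 10 genes in the 3 control, 3 melanosome and 3 glabridin libraries, each point 1 library and each black bar the mean ± SD. FGFR2 and DNM2 step down from group to group, MYO10 is higher in both laden groups, and ARF6 and CAV1 part from the other groups only in glabridin libraries.

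**Figure D2:**
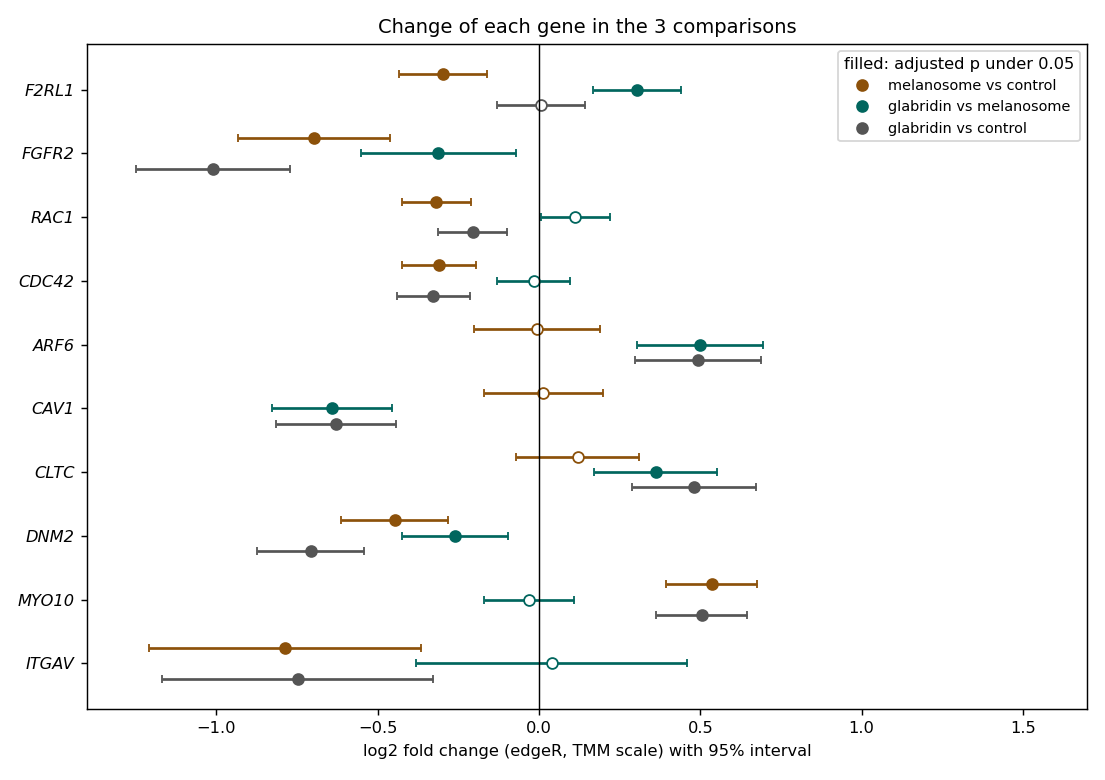
The log2 fold change (horizontal axis) of each gene in the 3 comparisons, with 95% intervals from the edgeR fit, filled where the adjusted p is under 0.05. FGFR2 in glabridin against control lies furthest from 0, at -1.01, and the intervals of ITGAV are the widest. With library totals in place of TMM, the calls of F2RL1 in the first 2 comparisons are lost.

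The 250 bases upstream of 1 RefSeq start are printed for 4 genes, chosen for their patterns. Those are the stepwise falls of FGFR2 and DNM2, the rise of MYO10 with melanosomes and the rise of ARF6 with glabridin. The sequences are from RefSeq's promoter table (build GRCh38.p14), which matched 9 of the 10 genes. RAC1 had no match. FGFR2 has 5 RefSeq starts, CAV1 3 and ITGAV 2. The start nearest the GENCODE start of the gene was used, so other promoters of these genes are not described. For CAV1 and CLTC it lies 224 and 206 bases downstream of the GENCODE start. FGFR2 lies at chr10:121598445-121598694 on the minus strand, DNM2 at chr19:10717829-10718078 on the plus strand, MYO10 at chr5:16936289-16936538 on the minus strand and ARF6 at chr14:49892832-49893081 on the plus strand. Each is written 5′ to 3′ on the strand of its gene, with matches on either strand to 8 short motifs in capitals.
FGFR2: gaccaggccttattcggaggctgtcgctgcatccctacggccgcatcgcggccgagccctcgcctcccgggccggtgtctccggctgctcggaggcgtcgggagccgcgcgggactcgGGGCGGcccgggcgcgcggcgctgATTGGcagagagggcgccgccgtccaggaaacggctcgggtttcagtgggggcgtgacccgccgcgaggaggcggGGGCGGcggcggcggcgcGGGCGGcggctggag
DNM2: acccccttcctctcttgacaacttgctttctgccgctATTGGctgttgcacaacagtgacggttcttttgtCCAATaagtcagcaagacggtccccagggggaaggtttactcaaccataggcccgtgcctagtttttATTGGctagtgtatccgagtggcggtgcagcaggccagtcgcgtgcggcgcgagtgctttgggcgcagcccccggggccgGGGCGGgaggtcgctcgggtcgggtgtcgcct
MYO10: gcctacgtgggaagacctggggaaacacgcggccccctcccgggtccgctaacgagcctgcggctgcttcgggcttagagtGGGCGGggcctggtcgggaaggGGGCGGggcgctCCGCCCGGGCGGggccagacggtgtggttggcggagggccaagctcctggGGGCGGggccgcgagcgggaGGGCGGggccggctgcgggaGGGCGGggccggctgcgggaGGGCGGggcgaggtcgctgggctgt
ARF6: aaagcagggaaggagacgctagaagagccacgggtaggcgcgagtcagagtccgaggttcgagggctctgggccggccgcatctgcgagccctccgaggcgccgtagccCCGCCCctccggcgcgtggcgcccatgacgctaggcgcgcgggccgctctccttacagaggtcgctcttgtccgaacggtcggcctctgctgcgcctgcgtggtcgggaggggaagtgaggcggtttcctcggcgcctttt
The capitals mark CCAAT (the CCAAT box) and GGGCGG (the GC box). CCAAT matched at 1 place upstream of FGFR2 and at 3 places upstream of DNM2, and in 32.01% of 35116 promoters of the same length. GGGCGG matched in 8 of the 9 genes and in 42.64% of all promoters, with 8 matches for MYO10, 3 for FGFR2, and 1 each for DNM2 and ARF6. The 9 windows ran from 60.8% GC (CLTC and DNM2) to 78.8% (MYO10), against a median of 58.0% over all promoters. The part of GC content in these matches was not tested. A cyclic AMP response element, TGACGTCA, matched only CDC42 of the 9 and 1.65% of all promoters. GGAATG, the TEAD site, matched only F2RL1 and 11.89% of all promoters. TGANTCA, the AP-1 site, had no match in the 9 windows, against 6.57% of all promoters. The same held for TGATGNAA, the amino acid response element (3.14%), CACGTG, the E-box (6.34%), and TATAAA, a core promoter element (10.72%). No motif overlaps another in these windows, and a match describes letters only.

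Among the receptors, F2RL1 (chromosome 5, 76818933 to 76835315, GRCh38) was lower with melanosomes and stood at the control level with glabridin. It was at 59.8, 56.5 and 62.6 CPM in control libraries 1 to 3, at 48.3, 49.1 and 48.2 CPM in melanosome libraries and at 60.8, 60.3 and 58.5 CPM in glabridin libraries. All melanosome values lay below all others, while control and glabridin values overlapped. With melanosomes its level was 0.81-fold of control, a log2 change of -0.30 ± 0.06 SE (edgeR adjusted p = 0.00176), and the rise with glabridin 0.30 ± 0.06 SE (edgeR adjusted p = 0.00248). Glabridin and control differed by 0.0060, with a 95% interval from -0.13 to 0.14. With library totals alone the first 2 values were -0.13 and 0.13 and neither passed (edgeR adjusted p = 0.0782 and 0.106), so both calls rest on the scaling.

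F2R, which encodes the thrombin receptor PAR-1, did not follow F2RL1. Its level went from 63.4 ± 1.04 CPM in control to 39.99 ± 0.29 CPM with melanosomes and 21.2 ± 0.72 CPM with glabridin, a fall at both steps (log2 changes -0.66 ± 0.06 and -0.91 ± 0.06 SE, edgeR adjusted p = 6.35e-06 and 1.86e-06). The ratio of F2RL1 to F2R within a library, which scaling cannot touch, averaged -0.09 on the log2 scale in control, 0.28 in melanosome and 1.497 in glabridin libraries. This ratio and the others below were picked after the values were seen and are descriptions. Of 20 genes listed around PAR-2 activation (proteases, protease inhibitors, the cofactor F3 and the receptor PLAUR), 17 were tested. With melanosomes 5 rose and 5 fell (58.8% called, against 62.5% of all genes), or 7 and 1 with library totals alone. KLK6, a kallikrein, rose from 3.75 ± 0.16 to 11.7 ± 0.77 CPM, and TMPRSS4, a membrane serine protease, fell from 295 ± 4.18 to 239 ± 11.4 CPM, a call lost with library totals (edgeR adjusted p = 0.169). With glabridin against melanosome 6 rose and 6 fell (70.6% called, against 43.9% of all genes), or 5 and 8 with library totals. PRSS8, which encodes the membrane protease prostasin, rose from 126 ± 6.75 to 295 ± 58.5 CPM (log2 change 1.23 ± 0.12 SE), and SPINK5, which encodes the kallikrein inhibitor LEKTI, fell from 3.35 ± 0.13 to 1.61 ± 0.39 CPM (-1.05 ± 0.17 SE).

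FGFR2 (chromosome 10, 121478334 to 121598458) fell at each step. Its levels were 20.7, 22.6 and 19.2 CPM in control, 11.8, 13.1 and 13.7 CPM in melanosome and 9.56, 9.98 and 11.5 CPM in glabridin libraries. No 2 groups overlapped, though melanosome replicate 1 and glabridin replicate 3 lay close together. The log2 change was -0.70 ± 0.11 SE with melanosomes (edgeR adjusted p = 2.57e-04) and -1.01 ± 0.11 SE from control to glabridin (edgeR adjusted p = 1.12e-05), where expression was 0.50-fold of control. The step from melanosome to glabridin, -0.31 ± 0.11 SE (edgeR adjusted p = 0.0378), was near the threshold. It did not pass without control replicate 1, melanosome replicate 2 or 3, or glabridin replicate 1 or 2 (edgeR adjusted p from 0.0517 to 0.128), nor with the replicate number as a block (0.0582) or only the 2 groups fitted (0.0540). Counts per gene do not separate the 27 annotated transcripts, so the epithelial receptor form cannot be read apart from others.

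Its paralog FGFR3 fell alongside, from 266 ± 2.77 CPM in control to 125 ± 9.53 and 66.4 ± 8.16 CPM (log2 changes -1.09 ± 0.09 and -0.92 ± 0.09 SE). FGFR1 had at most 3 counts in a control library, and stood at 7.38 ± 0.87 CPM with melanosomes and 7.28 ± 1.30 CPM with glabridin. It was higher in the libraries where the melanocyte markers summed higher, and which cells it came from was not tested. Of 21 listed receptors, ligands and signalling partners of PAR and FGF receptors, 15 were tested. Of these, 5 rose and 7 fell with melanosomes (6 and 5 with library totals alone). From melanosome to glabridin 3 rose and 4 fell (2 and 4 with library totals). The shares called were 80.0% and 46.7%, against 62.5% and 43.9% of all genes. ESRP1, a splicing factor that favours epithelial forms of FGFR2, rose with glabridin from 99.5 ± 3.09 to 216 ± 54.7 CPM (1.12 ± 0.15 SE), after a fall from 143 ± 2.75 CPM in control. ARRB1, a beta-arrestin that binds activated receptors, fell from 12.4 ± 0.73 to 4.87 ± 0.60 CPM (-1.347 ± 0.11 SE).

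ITGAV (chromosome 2, 186590065 to 186680901), the alpha v chain shared by several integrins that bind vitronectin or latent TGF-beta, fell with melanosomes and varied widely under glabridin. It was at 109.6, 105.9 and 109.4 CPM in control, at 69.9, 62.2 and 56.0 CPM in melanosome and at 62.2, 44.0 and 87.0 CPM in glabridin libraries. Every laden library lay below every control library, and the glabridin libraries spanned the whole melanosome range. The log2 change from control was -0.79 ± 0.19 SE with melanosomes (edgeR adjusted p = 0.00446) and -0.75 ± 0.19 SE with glabridin (edgeR adjusted p = 0.00468). From melanosome to glabridin it was 0.039, with a 95% interval from -0.38 to 0.46, too wide to exclude a change of either sign. Its coefficient of variation among glabridin libraries was 33.4%. At 38.3% GC its transcripts lie at the 8.77 percentile of tested genes, and its extremes in each laden group were libraries whose deviations followed GC content in opposite directions. Its deviation from the group mean on the log2 scale was 0.16 in melanosome replicate 1 and -0.16 in replicate 3, and -0.49 in glabridin replicate 2 and 0.48 in replicate 3. The part of GC in this spread was not tested.

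The beta chains that pair with ITGAV did not move as one. ITGB5 rose at both steps, from 98.7 ± 0.62 to 165 ± 4.53 and 241 ± 35.7 CPM (0.74 ± 0.09 and 0.55 ± 0.09 SE, edgeR adjusted p = 5.09e-05 and 6.53e-04). ITGB8 fell with melanosomes from 24.9 ± 2.23 to 9.81 ± 1.55 CPM (-1.34 ± 0.21 SE). ITGB6, which forms the epithelial alpha v beta 6 integrin, fell from 130 ± 3.75 CPM in control to 80.3 ± 11.9 CPM with glabridin (-0.70, edgeR adjusted p = 1.55e-04). Its smaller change with melanosomes (-0.27, edgeR adjusted p = 0.0462) did not pass with RLE, with library totals, or whichever control library was left out. ITGB1, which pairs with many alpha chains, stood at 455 ± 18.0, 410 ± 25.8 and 532 ± 50.4 CPM, and its rise with glabridin over melanosome (0.38 ± 0.08 SE, edgeR adjusted p = 0.00248) was lost with library totals (edgeR adjusted p = 0.0833). ITGB3 had at most 2 counts in a control library and was not tested. The log2 ratio of ITGB5 to ITGAV within a library averaged -0.13 in control, 1.40 in melanosome and 1.95 in glabridin libraries, from 1.28 to 2.67 among the last. Of 20 integrin partners and adhesion adaptors, 19 were tested, and 6 rose and 7 fell with melanosomes (8 and 6 with library totals alone). With glabridin against melanosome 5 rose and 6 fell (3 and 10 with library totals). The calls made up 68.4% and 57.9% of those tested, against 62.5% and 43.9% of all genes. ITGA9 rose from 1.47 ± 0.16 to 59.1 ± 1.60 CPM with melanosomes, beside the melanocyte markers, and fell to 34.1 ± 8.96 CPM with glabridin. ITGA3, the alpha 3 chain of a laminin receptor, rose from 1228 ± 64.6 to 1918 ± 324 CPM with glabridin (0.64 ± 0.10 SE).

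**Figure D3:**
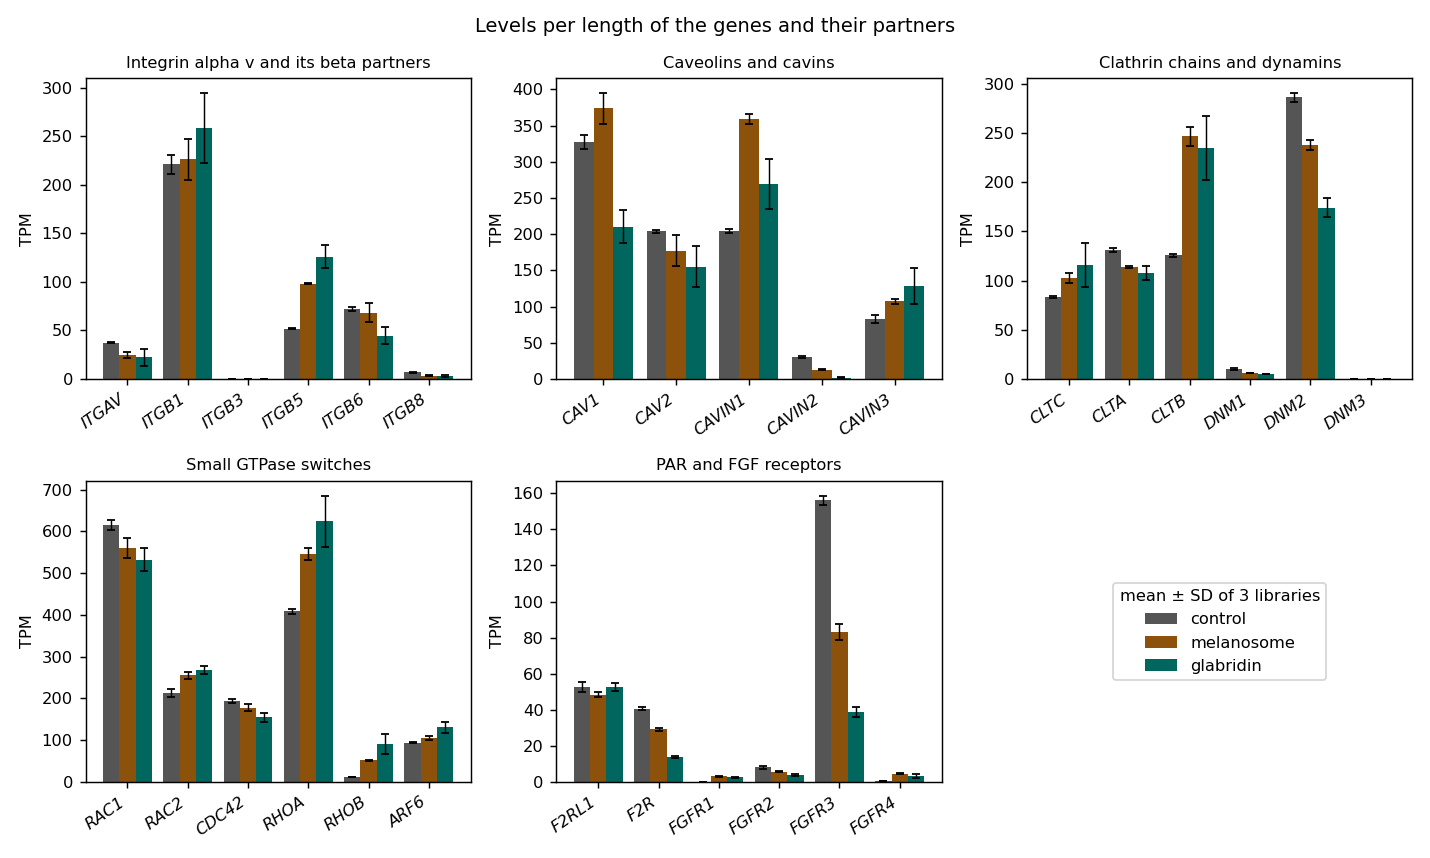
TPM (vertical axes from 0, mean ± SD of 3 libraries per group) of the genes and their partners, by control, melanosome and glabridin. ITGB5 rises while ITGAV falls, CLTB is higher in both laden groups, and FGFR3 falls at each step. TPM is scaled to each library's own total, so small differences here can differ from the TMM-scaled tests.

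Of the switches, RAC1 (chromosome 7, 6374523 to 6403977), which drives the membrane ruffles and cups of engulfment, was lower in both laden groups. It was at 561, 573 and 555 CPM in control, 458, 448 and 448 CPM in melanosome and 471, 503 and 490 CPM in glabridin libraries. No groups overlapped. The log2 change was -0.32 ± 0.05 SE with melanosomes (edgeR adjusted p = 2.48e-04) and -0.21 ± 0.05 SE from control to glabridin (edgeR adjusted p = 0.00301). With library totals alone the melanosome value was -0.15 and still passed (edgeR adjusted p = 0.0145). From melanosome to glabridin it was 0.11 ± 0.05 SE, which did not pass (edgeR adjusted p = 0.0840).

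CDC42 (chromosome 1, 22052627 to 22092946), the switch of filopodia and early phagocytic cups, had nearly the same profile. Its levels were 253, 261 and 251 CPM in control, 210, 203 and 203 CPM in melanosome and 194, 208 and 207 CPM in glabridin libraries. Both laden groups lay below control and overlapped each other. The log2 changes from control were -0.31 ± 0.05 and -0.33 ± 0.05 SE (edgeR adjusted p = 4.30e-04 and 1.92e-04). In limma on log2(TPM + 1), the melanosome change was -0.13 and did not pass (limma adjusted p = 0.0763). Between the laden groups it differed by -0.017, with a 95% interval from -0.13 to 0.097, which became -0.20 with library totals (edgeR adjusted p = 0.0109). RAC1 has 9 and CDC42 has 6 named pseudogenes in GENCODE, and 57.1% of CDC42 exon bases overlap AL031281.2 on the same strand, a gene outside the count table, so both counts carry some uncertainty from shared reads.

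ARF6 (chromosome 14, 49893092 to 49897054), which recycles membrane to sites of engulfment, rose on the TMM scale only when glabridin was present. It was at 138, 137 and 140.2 CPM in control, 140.4, 137 and 136 CPM in melanosome and 177, 228 and 179 CPM in glabridin libraries. Control and melanosome libraries overlapped within a few CPM, and every glabridin library lay above both. The log2 change was -0.0064 with melanosomes (95% interval -0.20 to 0.19) and 0.50 ± 0.09 SE from melanosome to glabridin (edgeR adjusted p = 0.00108), or 1.41-fold. It passed with library totals as well, at 0.32 (edgeR adjusted p = 0.00918), and without glabridin replicate 2, its highest library, at 0.37. With library totals the melanosome change was 0.16, which did not pass (edgeR adjusted p = 0.109). In TPM the melanosome libraries, at 102 to 111, lay above the control libraries, at 92.3 to 94.9.

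RHOA and RHOB, further small GTPases, went different ways from RAC1. RHOA, the switch of contractile actin, stood at 355 ± 7.98, 420 ± 7.14 and 548 ± 83.1 CPM and rose from control to glabridin by 0.62 (edgeR adjusted p = 1.09e-04). Its change with melanosomes, 0.24 ± 0.09 SE (edgeR adjusted p = 0.0388), did not pass whichever control or melanosome library was left out. RHOB, an endosomal relative, rose at both steps, from 10.2 ± 0.57 to 41.3 ± 2.05 and 84.0 ± 26.7 CPM (2.02 ± 0.19 and 1.02 ± 0.17 SE). The log2 ratio of RHOA to RAC1 within a library averaged -0.66 in control, -0.11 in melanosome and 0.16 in glabridin libraries. VAV3, an exchange factor that activates RAC1, fell at both steps, from 74.8 ± 1.21 to 39.7 ± 1.75 and 14.0 ± 0.96 CPM (-0.91 ± 0.07 and -1.51 ± 0.07 SE). CYFIP2, a subunit of the WAVE complex through which RAC1 triggers actin branching, had at most 10 counts in a control library and 8.43 ± 1.38 CPM with melanosomes, beside the melanocyte markers.

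The 21 genes listed for ARF6 are its regulators plus enzymes downstream of it (PIP5K1A, PIP5K1B, PIP5K1C, PLD1 and PLD2). With melanosomes 2 rose and 10 fell, which became 6 and 6 with library totals alone. From melanosome to glabridin 9 rose and 5 fell, which became 5 and 9. From control to glabridin 6 rose and 9 fell under both scalings. In this order 57.1%, 66.7% and 71.4% were called, against 62.5%, 43.9% and 70.3% of all genes. IQSEC1, an ARF6 exchange factor, rose with melanosomes from 9.37 ± 0.63 to 20.3 ± 0.97 CPM and fell with glabridin to 10.7 ± 1.56 CPM (1.11 ± 0.12 and -0.92 ± 0.12 SE). ACAP2, which switches ARF6 off, stood at 74.5 ± 5.20, 39.99 ± 6.93 and 72.4 ± 27.8 CPM, with a rise at the second step (0.86 ± 0.23 SE, edgeR adjusted p = 0.0106) that did not pass in limma on log2(TPM + 1) (limma adjusted p = 0.0830). ARAP2, another of the proteins that switch ARF6 off, fell with melanosomes from 14.3 ± 0.72 to 7.27 ± 0.04 CPM (-0.98 ± 0.16 SE).

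CAV1 (chromosome 7, 116524785 to 116561184), the main coat protein of caveolae, fell only when glabridin was present. Its levels were 475, 455 and 483 CPM in control, 487, 483 and 457 CPM in melanosome and 266, 346 and 302 CPM in glabridin libraries. Control and melanosome libraries overlapped, and all glabridin libraries lay more than 100 CPM below both. The log2 change was 0.014 with melanosomes (95% interval -0.17 to 0.20) and -0.64 ± 0.08 SE from melanosome to glabridin (edgeR adjusted p = 1.60e-04), or 0.64-fold. It was -0.82 with library totals. With only control and melanosome libraries fitted, the melanosome change was 0.095 and passed (edgeR adjusted p = 0.0428). ARF6 and CAV1 thus parted under glabridin. Their log2 ratio within a library was -1.77 ± 0.03 (SD, n = 3) in control, -1.79 ± 0.03 in melanosome and -0.65 ± 0.09 in glabridin libraries.

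The partners of CAV1 in caveolae had other profiles. CAV2, its companion caveolin, stood at 324 ± 2.58, 248 ± 22.8 and 247 ± 32.1 CPM, so that its fall came with melanosomes (-0.39 ± 0.09 SE, edgeR adjusted p = 0.00417), though not with library totals (-0.22, edgeR adjusted p = 0.0993). CAVIN1, which stabilises the caveolar coat, rose with melanosomes from 301 ± 3.05 to 466 ± 18.5 CPM (0.63 ± 0.11 SE) and stood at 400 ± 72.3 CPM with glabridin. CAVIN2, a cavin that helps curve the membrane, fell at both steps, from 37.5 ± 2.54 to 14.1 ± 0.67 and 2.07 ± 0.72 CPM (-1.41 ± 0.17 and -2.76 ± 0.20 SE, edgeR adjusted p = 4.76e-05 and 2.35e-06). CAVIN3 rose with glabridin from 46.1 ± 2.55 to 62.5 ± 9.75 CPM (0.44 ± 0.11 SE), a call lost with library totals (edgeR adjusted p = 0.0868) and without glabridin replicate 1 (0.0522). FLOT1, a flotillin of other membrane domains, rose with melanosomes from 190 ± 3.83 to 367 ± 15.6 CPM (0.95 ± 0.10 SE). Endothelial cells are rich in caveolae. The 8 endothelial markers summed to at most 5.25 CPM in glabridin, 11.1 to 12.7 CPM in melanosome and 38.3 to 38.4 CPM in control libraries. In each group only 2 of the 8 were above 1 CPM in every library, and 2 or 3 had 0 counts throughout. The sums thus rest on few genes and do not show whether endothelial cells were present, and their part in these values was not tested. Of 12 listed caveolar genes 10 were tested. With melanosomes 3 rose, 3 fell and 4 were not called (6 rises and 1 fall with library totals), beside 62.5% of all genes called. From melanosome to glabridin 1 rose, 4 fell and 5 were not called (6 falls with library totals), beside 43.9% of all genes called. Both shares of caveolar genes called under TMM are near the background.

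CLTC (chromosome 17, 59619689 to 59696956), the heavy chain of clathrin, was highest in glabridin libraries. It was at 290.5, 281 and 289 CPM in control, 319, 305 and 311 CPM in melanosome and 404, 343 and 455 CPM in glabridin libraries. The groups did not overlap, but glabridin replicate 2 lay near the melanosome libraries. The log2 change from control to glabridin was 0.48 ± 0.09 SE (edgeR adjusted p = 5.21e-04), and 0.47 with library totals. How it divides between the steps depended on the scaling. With TMM it was 0.12 with melanosomes (edgeR adjusted p = 0.250) and 0.36 with glabridin (edgeR adjusted p = 0.00653), whereas with library totals it was 0.29 (edgeR adjusted p = 0.0289) and 0.19 (edgeR adjusted p = 0.149). With only control and melanosome libraries fitted, the first was 0.20 (edgeR adjusted p = 2.24e-04). At 8993 bases its transcript is at the 92.1 percentile of length, and deviations in glabridin replicates 2 and 3 followed length with rank correlations of -0.37 and 0.38 over 12118 genes, against -0.20 to 0.26 in the other libraries. Deviations in those 2 replicates also followed GC content, at 0.44 and -0.58, and CLTC is at the 24.4 percentile of GC. The parts of length and GC in its spread were not tested.

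DNM2 (chromosome 19, 10718079 to 10833488), the dynamin that pinches vesicles off in most tissues, fell at each step. Its levels were 496, 505 and 496 CPM in control, 349, 367 and 382 CPM in melanosome and 309, 336 and 272 CPM in glabridin libraries. No groups overlapped. The log2 change was -0.45 ± 0.07 SE with melanosomes (edgeR adjusted p = 4.66e-04), -0.26 ± 0.07 SE from melanosome to glabridin (edgeR adjusted p = 0.0164) and -0.71 ± 0.08 SE from control to glabridin (edgeR adjusted p = 1.04e-05). The middle value did not pass without melanosome replicate 2 or 3 (edgeR adjusted p = 0.0517 and 0.0666). TMED1 lies on the opposite strand and shares 5.77% of DNM2 exon bases. Within a library the log2 ratio of CLTC to DNM2 counts averaged -0.80 in control, -0.23 in melanosome and 0.39 in glabridin libraries, where it ran from 0.03 to 0.74. The ranges of this ratio, which scaling does not touch, did not overlap between groups.

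The clathrin light chains differed from each other. CLTA fell with melanosomes from 127 ± 0.62 to 96.9 ± 2.98 CPM (-0.39 ± 0.05 SE, edgeR adjusted p = 1.22e-04), and CLTB rose from 85.3 ± 1.72 to 148 ± 9.58 CPM (0.79 ± 0.12 SE, edgeR adjusted p = 1.71e-04). Their log2 ratio, CLTB to CLTA, went from -0.57 ± 0.03 (SD, n = 3) in control to 0.61 ± 0.06 in melanosome and 0.61 ± 0.29 in glabridin libraries. DNM1, the dynamin best known from neurons, fell from 24.7 ± 1.61 to 12.9 ± 0.66 CPM with melanosomes (-0.94 ± 0.09 SE), and DNM3 was low throughout, at 0.63 ± 0.19, 0.53 ± 0.19 and 0.58 ± 0.26 CPM. Of 34 genes of the clathrin coat and dynamin, 12 rose and 11 fell with melanosomes (19 and 5 with library totals), and 6 rose and 6 fell from melanosome to glabridin (2 and 12). From control to glabridin 15 rose and 12 fell under both scalings. In this order 67.6%, 35.3% and 79.4% were called, against 62.5%, 43.9% and 70.3% of all genes. DAB2, a cargo adaptor, had at most 32 counts in a control library and 15.9 ± 0.28 CPM with melanosomes, beside the melanocyte markers. DNAJC6, the auxilin that strips clathrin coats, rose with glabridin from 3.61 ± 0.18 to 7.80 ± 0.67 CPM (1.11 ± 0.12 SE).

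MYO10 (chromosome 5, 16661914 to 16936276), a motor that carries integrins to the tips of filopodia and takes part in phagocytosis, was the gene of the 10 that rose with melanosomes under TMM. It was at 105, 110 and 106 CPM in control, 155, 155 and 155 CPM in melanosome and 155, 138 and 162 CPM in glabridin libraries. Both laden groups lay above control and overlapped each other. The log2 change was 0.54 ± 0.06 SE with melanosomes (edgeR adjusted p = 4.16e-05), 0.70 with library totals, and 0.50 ± 0.06 SE from control to glabridin (edgeR adjusted p = 3.92e-05). Between the laden groups it was -0.031 (95% interval -0.17 to 0.11) and, with library totals, -0.21 (edgeR adjusted p = 0.0355). MYO10 was thus higher in the groups where the melanocyte markers summed higher, as were 29.5% of all genes in melanosome against control. A link between them was not tested. Against RAC1, the log2 ratio of counts went from -2.40 ± 0.02 (SD, n = 3) in control to -1.54 ± 0.02 with melanosomes and -1.69 ± 0.15 with glabridin.

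Of 20 other unconventional myosins and filopodial genes, 5 rose and 8 fell with melanosomes, or 9 and 5 with library totals alone, and 6 rose and 8 fell from control to glabridin under both scalings. From melanosome to glabridin 4 rose and 5 fell (1 and 6 with library totals). In this order 65.0%, 70.0% and 45.0% were called, against 62.5%, 70.3% and 43.9% of all genes. FMNL3, a formin of filopodia, rose with melanosomes from 2.52 ± 0.68 to 6.87 ± 0.87 CPM (1.44 ± 0.23 SE), and ARHGAP21, which restrains CDC42, fell from 106 ± 1.22 to 63.2 ± 2.96 CPM (-0.75 ± 0.16 SE). With glabridin MYO19, a motor of mitochondria, rose from 86.8 ± 3.92 to 119.98 ± 0.94 CPM (0.47 ± 0.06 SE), and FMNL2, a relative of FMNL3, fell from 26.8 ± 0.77 to 20.0 ± 2.75 CPM (-0.42 ± 0.10 SE).

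Other phagocytic receptors and the bridging proteins that link them to cargo were set beside these genes. Of 22 listed, 17 were tested, and 7 rose and 6 fell with melanosomes (8 and 4 with library totals). From melanosome to glabridin 4 rose and 5 fell (3 and 8 with library totals). The calls made up 76.5% and 52.9% of those tested, against 62.5% and 43.9% of all genes. MERTK, a receptor for dying cells that the retinal pigment epithelium uses to engulf photoreceptor tips, had at most 6 counts in a control library, 22.8 ± 0.49 CPM with melanosomes and 16.2 ± 1.45 CPM with glabridin. It too was higher where the melanocyte markers summed higher, and which cells it came from was not tested. TLR3, a sensor of double-stranded RNA that has been tied to melanosome uptake, fell at both steps, from 27.3 ± 1.96 to 11.6 ± 0.72 and 6.10 ± 2.003 CPM (-1.23 ± 0.18 and -0.92 ± 0.19 SE, edgeR adjusted p = 2.14e-04 and 0.00283). CALR, which encodes calreticulin, a chaperone that also marks cells for engulfment, rose with glabridin from 550.1 ± 16.8 to 1413 ± 73.0 CPM (1.36 ± 0.06 SE, edgeR adjusted p = 8.19e-08).

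**Figure D4:**
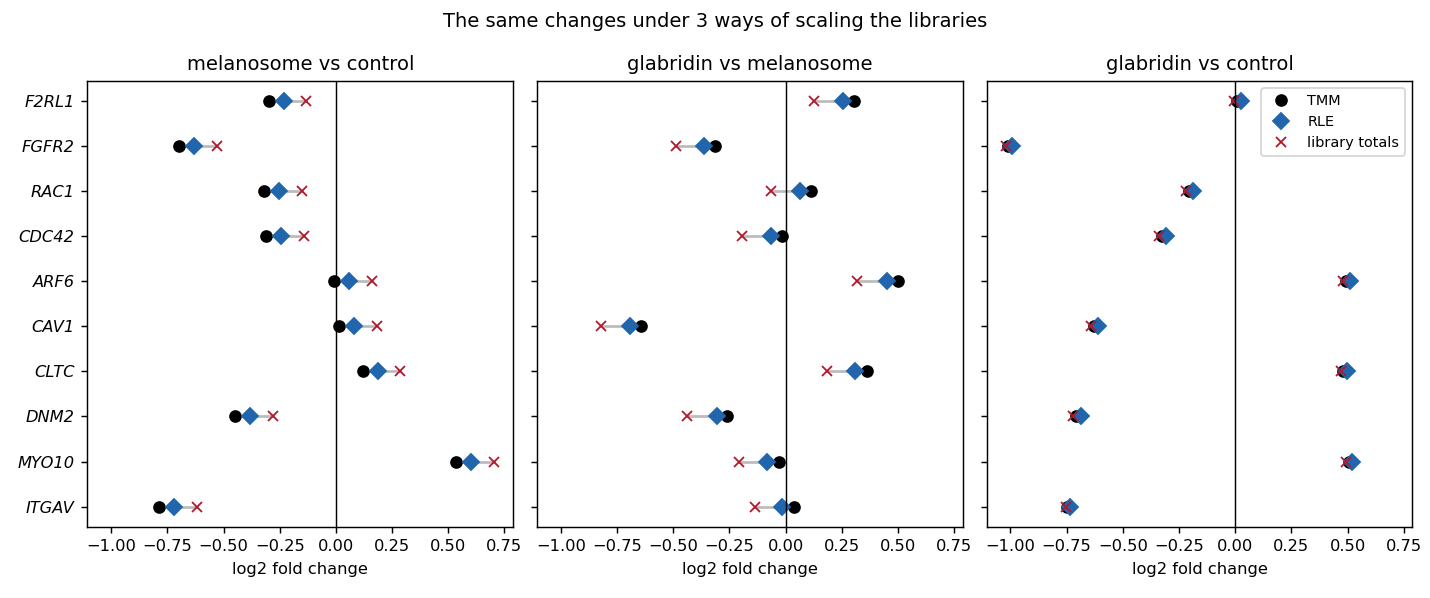
The log2 fold change (horizontal axes) of the 10 genes under TMM, RLE and library totals, 1 panel per comparison. The marks of a gene spread in the first 2 panels, where RAC1 and ITGAV cross 0 between melanosome and glabridin and ARF6 crosses 0 between control and melanosome, and nearly coincide for glabridin against control.

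Replicates bore unequally on these values. Control and melanosome libraries of a gene deviated by at most 0.16 from their group mean on the log2 scale. In the glabridin group ITGAV deviated by -0.49 in replicate 2 and 0.48 in replicate 3, and CLTC by -0.22 and 0.19, while ARF6 deviated by 0.24 and -0.11. F2RL1 and RAC1 deviated by at most 0.05 there. Without both replicates 2 and 3, the calls for ARF6, CAV1, CLTC and ITGAV against control were the same as with all libraries, with the single remaining glabridin library assumed to vary like the other groups.

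**Figure D5:**
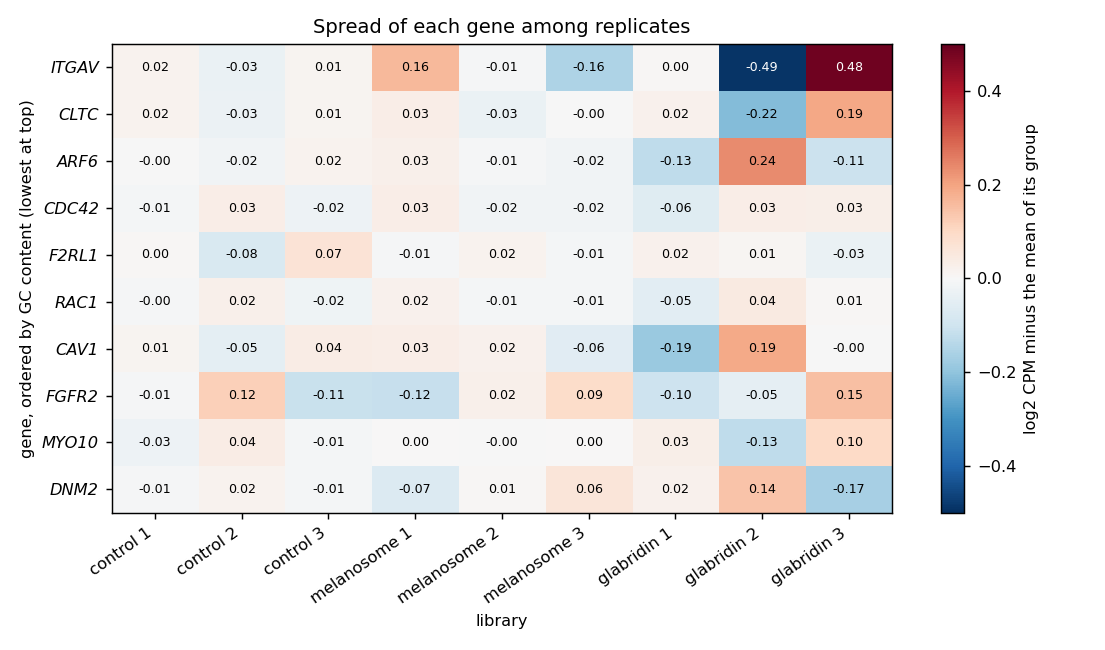
Deviation of log2 CPM from the group mean for each gene (rows, ordered by GC content) in each library (columns), as color and number. Deviations beyond 0.20 occur only in glabridin replicates 2 and 3, most of all for ITGAV at -0.49 and 0.48.

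For each gene the tested gene nearest to it over all 9 libraries was found by the distance between centred log2 CPM profiles, among 11574 candidates. CDC42 was nearest to PRPF38A, a splicing factor gene, with a root mean square difference of 0.019 on the log2 scale. DNM2 was nearest to PTPRS (0.025), ITGAV to MORC3 (0.025) and F2RL1 to WBP1 (0.033). RAC1 was nearest to ATP6V1H (0.040), CLTC to NRBF2 (0.043), MYO10 to CKAP5 (0.048) and CAV1 to WDCP (0.053). ARF6 was nearest to FBXO36 (0.061) and FGFR2 to PPFIBP2 (0.062). None of the nearest genes was another of the 10.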

How the data were processed

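Poly(A) RNA of 9 HaCaT libraries was sequenced, and groups and replicate numbers came from the sample titles. Raw whole-number counts were deposited by the authors in 1 table with TPM and FPKM columns, named so per the file headers, and a further deposited TPM table held identical values. The genome build was hg38, per the submitters' processing notes. For the aligner, counter, strand setting and annotation, the sources used here give no name. Of 20263 identifiers, 20148 had a symbol in the reference name table. Positions are from GENCODE release 29. Among counts from 1 to 49, 69.9% to 72.2% were even, which touches only low genes. Whether replicates were separate cultures is not labelled, and p-values therefore reflect only how far the 9 libraries differ, possibly for technical reasons.

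The quasi-likelihood test of edgeR 4.0.16 (R 4.3.3) was applied to the counts of all 9 libraries in 1 fit, after filterByExpr and with TMM factors, with Benjamini-Hochberg adjustment over 13912 genes and calls at 0.05. Standard errors and intervals came from the F statistic. In counts simulated for melanosome against control over 13912 genes, 67, 67 and 66 genes were changed 1.5-fold, 2-fold and 4-fold. Of these, 62.7%, 88.1% and 98.5% were recovered. In the data 8691 genes were called, a setting unlike the simulated one, so these shares do not give the rate of recovery there. Rank correlations with length and GC were Spearman's. Figures were drawn with matplotlib 3.10.9 in Python 3.11.15. Alternatives were RLE or no scaling, DESeq2 1.42.0, no filter, only the groups compared, a replicate block, limma 3.58.1 on log2(TPM + 1) or log2(TPM + 0.1), and leaving out libraries. The 10 genes, the 9 related and 5 marker lists were chosen with earlier results of these data known. Named beside the 10 are set binding partners and paralogs, and from each related list the called gene with the largest rise and fall in each of the first 2 comparisons, at a mean log2 CPM of at least 1. Not reported here are the counts of 1 related list and a gene that this rule names.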

Additional observations from a re-analysis of the deposited data

How the results depend on the processing

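The counts of called genes and of called members of the 10 kept within 1.5 times their values under every alternative run: 7471 to 10305 genes and 6 to 9 members for melanosome against control, 4850 to 7324 and 4 to 6 for glabridin against melanosome, and 8987 to 10455 and 9 for glabridin against control. Same-numbered replicates did not deviate together (correlations from -0.38 to 0.10). Deviations also followed GC content, so this cannot tell whether the numbers mark shared cultures or batches. With the replicate block 8255, 5523 and 9507 genes and 7, 5 and 9 members were called, and FGFR2 was at -0.31 (edgeR adjusted p = 0.0582) from melanosome to glabridin. The share of calls that were higher went from 47.2% to 66.0% without scaling factors for melanosome against control, and from 54.0% to 29.05% for glabridin against melanosome.

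Direction turned only for values not called. For ARF6 with melanosomes the log2 change was 0.060 with RLE and with DESeq2, 0.16 without scaling, 0.075 with only the 2 groups, 0.17 in both limma fits, and -0.019 to 0.075 leaving out 1 library. CAV1 with melanosomes ran from -0.010 to 0.095 leaving out 1 library. From melanosome to glabridin, ITGAV was -0.018 with RLE and with DESeq2, -0.13 without scaling, -0.19 and -0.20 in limma with pseudocounts 1 and 0.1, -0.012 without both glabridin replicates 2 and 3, and -0.24 to 0.25 leaving out 1 library. RAC1 was -0.066 without scaling and -0.073 in both limma fits. CDC42 ran from -0.033 to 0.00019 and MYO10 from -0.081 to 0.031 leaving out 1 library. F2RL1 from control to glabridin was -0.0058 without scaling, -0.0042 with only the 2 groups, and -0.031 to 0.044 leaving out 1 library. Among partners, ITGB1 with melanosomes was 0.021 without scaling and 0.031 in both limma fits. From melanosome to glabridin CLTA was -0.069 without scaling and -0.076 in both limma fits, CLTB -0.059 and, in limma, -0.077 and -0.078, DNM3 -0.084 without scaling, and ITGB8 -0.058 without scaling, -0.075 and -0.11 in limma and -0.096 without both glabridin replicates. Leaving out 1 library, CLTB ran from -0.037 to 0.24, ITGB8 from -0.20 to 0.29, CAV2 from -0.12 to 0.071, FGFR1 from -0.16 to 0.098 and DNM3 from -0.17 to 0.43. The cause of these turns was not tested. Leaving out both glabridin replicates 2 and 3 was chosen after seeing the data.

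With 3 libraries a group and 95% intervals near 0.1 to 0.4 on each side, changes of the 10 genes below about that size were not detectable. Counts of transcripts do not measure protein, active GTPase or uptake.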
